A study of Mus musculus with 6 samples.

Results

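The DNA replication and S phase genes described here are 39 genes chosen by symbol for their textbook role in copying the genome or in starting that copying. The rule uses no measured value, but the list was drawn up with earlier results of these data known. All 39 were found among the 41388 genes of the count table, and all 39 were among the 15186 genes kept by a filter on low counts. The cells were primary fibro-adipogenic progenitors from the muscle of wild-type male mice, the mesenchymal cells of muscle that can become fibroblasts or adipocytes. They were grown in medium with serum and fibroblast growth factor. Both groups were handled daily for 2 days, 3 libraries receiving vehicle and 3 receiving prostaglandin E2 (PGE2) at 500 nM. PGE2 is a lipid mediator whose receptors act through cyclic AMP and calcium. The labels number the libraries 1 to 3 in each group but do not say whether a number stands for a mouse, a culture or a day, so the p-values speak for the scatter of these 6 libraries only, and that scatter could be technical.

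Copying of the genome is licensed in G1, when the origin recognition complex, CDC6 and CDT1 load the ring-shaped MCM helicase onto DNA. At the start of S phase, cyclin E and CDK2 and the E2F transcription factors drive the switch, CDC45 and the GINS complex turn MCM into an active helicase, and DNA polymerases alpha, delta and epsilon copy the strands with the PCNA clamp. Transcripts of these genes are low in resting cells and high in cycling ones, so in a bulk library fewer cells in S phase and less RNA per cell cannot be told apart.

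Some of these genes carry sequences that match E2F sites close to their start. RefSeq promoters of build GRCm38.p6, each 250 bases before to 50 after a gene's start, were searched on both strands for TTTCCCGC, TTTGGCGC, TTTGCCGC and TTTCGCGC, some of which overlap where one reads into another. At least 1 match was found for 14 of the 32 members with an entry (43.8%) and for 478 of 10559 tested genes with an entry (4.53%). Median GC content of the promoters was 59.7% and 60.7% in these sets. Mcm4, Gins1, Gins2, Prim2, Pole, Rfc2 and Ccne2 had no entry. The 160 bases before the start are shown for 3 members with such matches, whose levels are given below, and for Rrm1, which had none in its window. Capitals mark the matches.
Mcm5: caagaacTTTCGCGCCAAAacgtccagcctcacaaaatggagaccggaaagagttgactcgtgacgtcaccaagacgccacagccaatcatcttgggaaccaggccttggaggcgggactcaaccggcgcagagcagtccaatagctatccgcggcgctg
Mcm6: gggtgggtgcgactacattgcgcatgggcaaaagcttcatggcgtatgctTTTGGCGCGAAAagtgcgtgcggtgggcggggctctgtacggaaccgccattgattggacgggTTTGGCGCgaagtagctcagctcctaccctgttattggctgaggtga
Pola1: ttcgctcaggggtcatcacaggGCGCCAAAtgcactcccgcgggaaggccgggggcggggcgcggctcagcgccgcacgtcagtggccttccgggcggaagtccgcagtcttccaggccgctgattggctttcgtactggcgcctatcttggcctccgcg
Rrm1: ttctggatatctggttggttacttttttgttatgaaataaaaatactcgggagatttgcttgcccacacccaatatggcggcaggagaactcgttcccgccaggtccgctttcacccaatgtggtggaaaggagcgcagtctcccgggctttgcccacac
They lie at chr8:75109349-75109508 on the plus strand, chr1:128359706-128359865 and chrX:93632156-93632315 on the minus strand, and chr7:102441535-102441694 on the plus strand. In Mcm5 an overlapping pair of matches makes 1 capital run of 12 bases, and in Mcm6 such a run is followed by a match starting 47 bases before the start. The single Pola1 match starts 138 bases before the start. A match is a description of letters, not evidence of binding.

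Library totals were between 21006044 counts (vehicle 2) and 52730962 counts (PGE2 2). Levels are given as CPM, counts scaled to the library total after normalization, where 3 counts corresponded to 0.0582 to 0.142 CPM. The progenitor marker Pdgfra was at 1122 to 1455 CPM in every library, and the leukocyte marker Ptprc and the Schwann cell marker Sox10 had no count in any. Summed levels of 6 endothelial, 6 leukocyte and 5 Schwann cell markers were at most 46.96, 13.2 and 8.09 CPM in any library, and those of 6 pericyte markers were 56.2 to 121 CPM. The muscle lineage was present at a low level. The 10 myogenic markers summed to 188, 61.2 and 40.4 CPM under vehicle (libraries 1 to 3) and to 121, 15.3 and 14.7 CPM under PGE2 (same order). Of these, the satellite cell genes Pax7 and Myf5 were at or below 0.116 CPM.

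The replication genes followed the replicate number more than the treatment. Their summed level was 1559, 936 and 990 CPM under vehicle (libraries 1 to 3) and 1321, 957.5 and 916 CPM under PGE2 (same order). The number 1 library was thus the highest of its group under vehicle and under PGE2, and the other 4 libraries lay close together. Both number 1 libraries stood above all 4 others for 37 of 39 members (94.9%), against 12.9% of all tested genes. The exceptions were Pola1 and Ccne1.

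**Figure D1:**
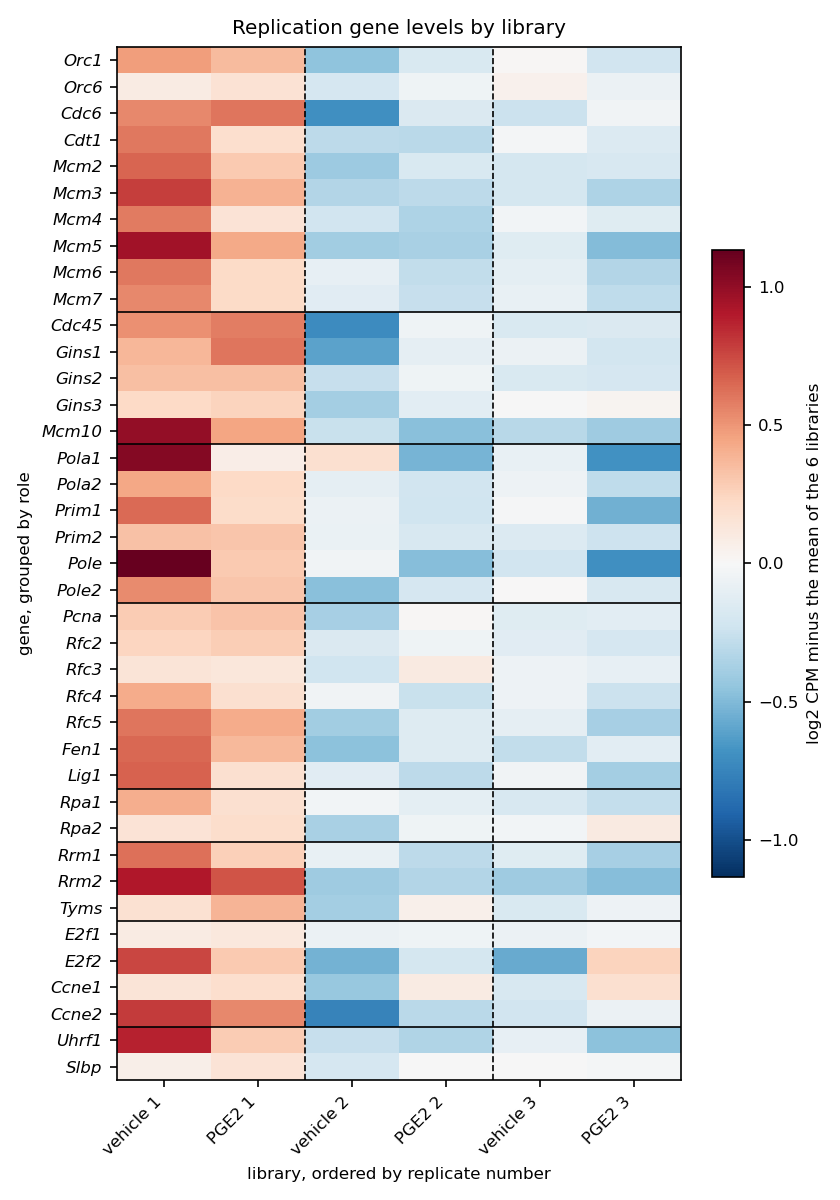
Level of each of the 39 members in each library, as log2 CPM minus that gene's mean over the 6 libraries, with columns ordered by replicate number and rows by role. The 2 leftmost columns, vehicle 1 and PGE2 1, are above the gene's mean in every row, and the other 4 columns are mostly below it.

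Vehicle 1 was the highest library for 27 members and PGE2 1 for the other 12. Vehicle 2, the shallowest library, was the lowest for 19 members and PGE2 3 for 15. Within the vehicle group, library 1 exceeded the mean of libraries 2 and 3 by a median factor of 1.63 over members (range 1.12 to 2.49). Within the PGE2 group that factor was 1.41 (1.04 to 2.17), and over all tested genes it was 0.993 and 0.992. The ribonucleotide reductase subunit Rrm2, whose supply of deoxynucleotides is tied to S phase, had factors of 2.47 and 2.17. E2f1, the E2F factor itself, had 1.12 and 1.11, and the histone mRNA-binding gene Slbp 1.12 and 1.13.

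In a fit with both treatment and replicate number, the number term passed an adjusted p of 0.05 for 30 of 39 members (76.9%), against 10.7% of all tested genes (edgeR, Benjamini-Hochberg). This test was added after the data were seen. Without the number 1 libraries it passed for 0 members and for 0.757% of all genes. Without number 2 or 3 it passed for 30 and 35 members, and for 15.8% and 19.1% of all genes. The 9 members that did not pass were Orc1, Orc6, Gins3, Rfc3, Rpa2, E2f1, E2f2, Ccne1 and Slbp. Of the spread of log2 CPM over the 6 libraries, the median member had 84.05% between numbers and 8.28% between treatments, where the median tested gene had 38.6% and 28.9%.

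Genes of G2 and mitosis were also highest in the number 1 libraries. Their 18 genes summed to 1228, 604 and 614 CPM under vehicle (libraries 1 to 3) and to 974, 570 and 423 CPM under PGE2 (same order), and all 18 had both number 1 libraries above the other 4. The myogenic markers were also highest in the number 1 libraries. Summed levels of 9 progenitor markers, collagens among them, were lowest there, at 7843 and 7516 CPM against 12580 to 19720 CPM. Most of that sum was Col1a1 and Col3a1. Cd34 was instead highest there, at 242 CPM against 187 and 159 CPM under vehicle and 174 against 114 and 105 CPM under PGE2. Ly6a was lowest in vehicle 2 and PGE2 3, and the other progenitor markers were lowest in number 1 of each group. The part of cell composition in the replication gene levels was not tested.

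**Figure D2:**
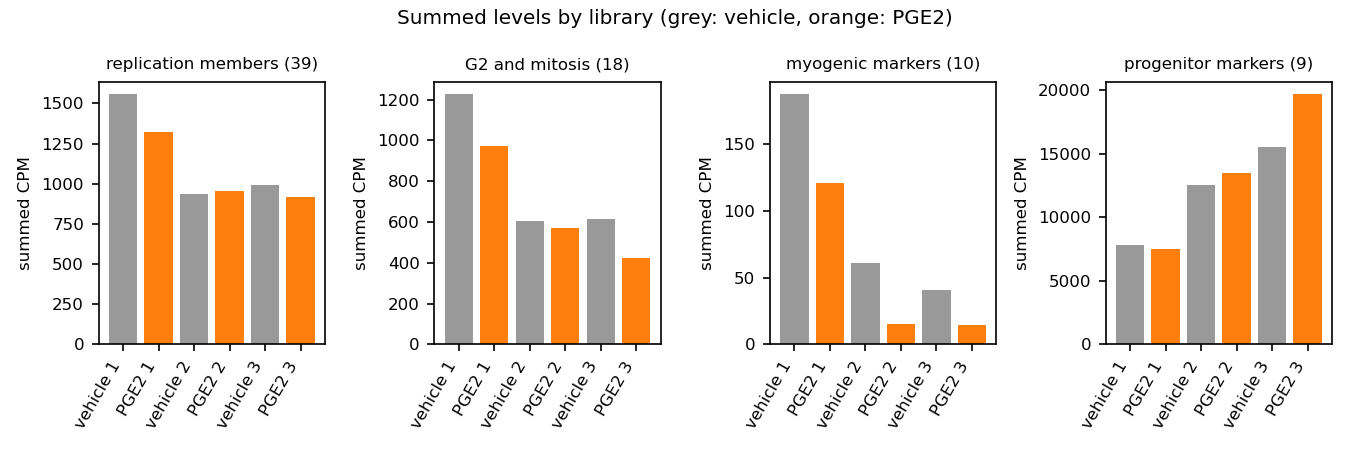
Summed CPM in each library for the 39 replication members, 18 genes of G2 and mitosis, 10 myogenic markers and 9 progenitor markers, with vehicle in grey and PGE2 in orange. The first 3 panels are highest in vehicle 1 and PGE2 1, and the progenitor panel is lowest there.

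Between treatments, none of the 39 members had groups that did not overlap, whereas 25.9% of all tested genes did. Groups must overlap where both number 1 libraries lie above the other 4, which held for 37 members. The count is therefore no separate result on treatment. With treatment alone in the fit, 0 of 39 members passed an adjusted p of 0.05 in edgeR and 0 had an unadjusted p under 0.05. DESeq2 also called 0, with 1 unadjusted. Of all tested genes 0.342% passed in edgeR (0.211% higher and 0.132% lower) and 20.1% had an unadjusted p under 0.05. DESeq2 called 6.04% of the 13734 genes to which it gave an adjusted p (2.83% higher and 3.21% lower). The median log2 fold change of PGE2 over vehicle was -0.09 over members and -0.001 over all genes, with 16 members above 0 and 23 below. The median member's standard error was 0.254, against 0.129 for all genes, and the 95% interval lay inside a 2-fold change either way for 29 members (74.4%, against 79.0% of all genes). The members' median was 0.18 without vehicle 1, -0.27 without vehicle 2 and -0.28 without PGE2 1, so its direction rested on single libraries.

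Setting same-numbered libraries against each other gave a narrower spread. This pairing was taken from correlations in the same data, mainly those of number 1, and is not given by the labels. With replicate number as a block in the edgeR fit, the median member's standard error was 0.101. The 95% interval then lay inside a 1.5-fold change either way for 34 of 39 members, and for 65.9% of all genes. In that fit 7 of 39 members passed (17.9%, against 14.4% of all tested genes), and all 7 were lower under PGE2 (6.91% of all genes were higher and 7.51% lower). They were Pola1, Pole, Lig1, Rrm1, Prim1, Uhrf1 and Mcm6. PGE2 was below vehicle in all 3 numbers for 15 members (38.5%, against 25.5% of all genes) and above it in all 3 for 8 members (20.5%, against 26.6%). The count was 2 without number 1 (Pola1 lower and Ccne1 higher), 6 without number 2 and 13 without number 3, each of these fits having 2 pairs. Over all genes it was 1372 of 15057, 1160 of 15307 and 5097 of 15316 in the same fits. Without number 1, Pola1 was at -0.66 and the other 6 called genes between -0.46 and -0.20. All 7 were lower in each of the 3 numbers, so these signs were settled beforehand. The members' median difference within numbers 1 to 3 was -0.22, 0.11 and -0.10 on the log2 scale, so number 2 ran the other way, while the median over all genes was between -0.005 and 0.011.

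**Figure D3:**
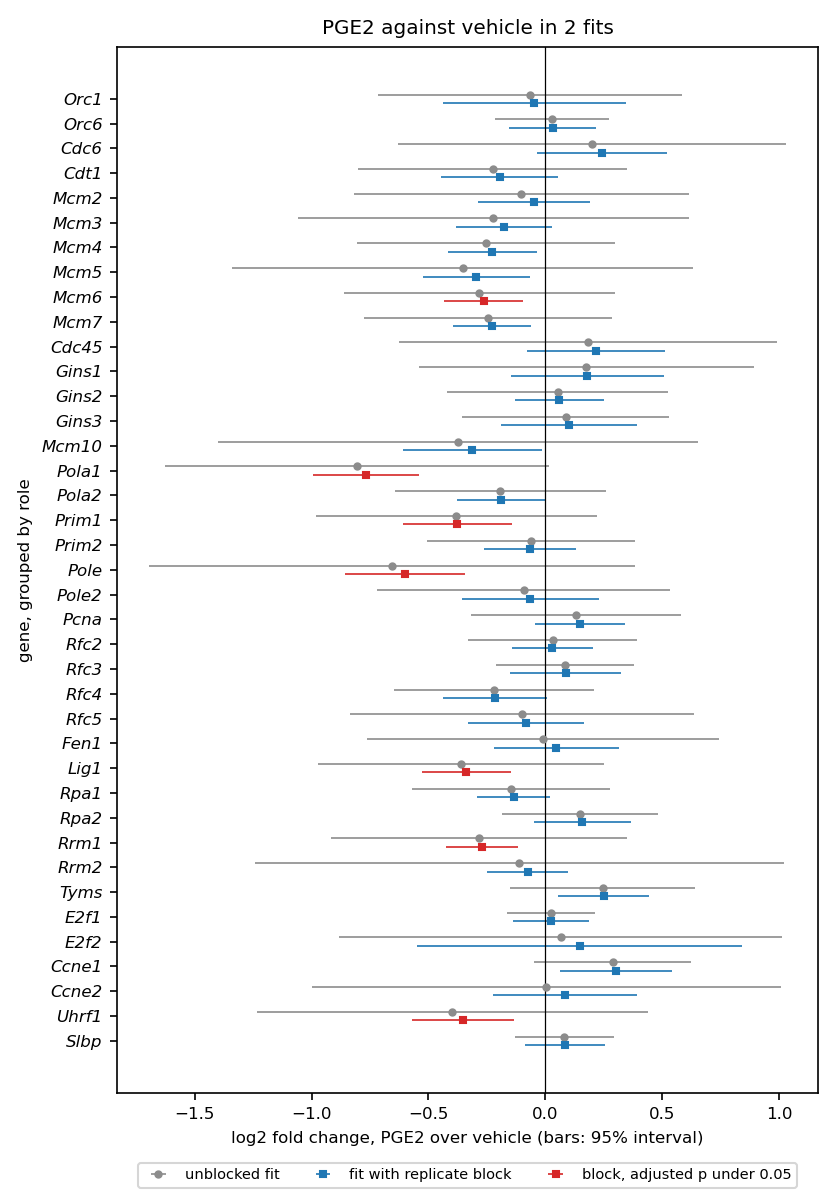
Log2 fold change of PGE2 over vehicle for each member, with its 95% interval, in the fit with treatment alone (grey circles) and in the fit with replicate number as a block (blue squares, red where the adjusted p is under 0.05). The grey intervals of all 39 members include 0, and the 7 red members all lie below 0.

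The 6 polymerase and primase members had the lowest median fold change among the members' role groups. All 6 members were below 0, with a median of -0.29 on the log2 scale, and 5 of 6 were lower under PGE2 in all 3 numbers. The 6 polymerase subunits outside the member list had a median of -0.03, with 3 above 0 and 3 below. Pold1, Pold2 and Pold3 were at -0.21, -0.12 and -0.12, and Pold4, Pole3 and Pole4 at 0.27, 0.06 and 0.31. With a correction for transcript length and no block, the median was -0.32 for the members and -0.09 for the other subunits. Pola1 encodes the catalytic subunit of polymerase alpha, which starts every new strand, and lies on chromosome X at 93304767 to 93632155 of mm10. Its level was 27.6, 15.2 and 12.7 CPM under vehicle (libraries 1 to 3) and 14.2, 9.31 and 8.35 CPM under PGE2 (same order). Each PGE2 library was thus below the vehicle library of its number, although PGE2 1 stood above vehicle 3 and the groups overlapped. Group means were 18.5 ± 7.99 CPM under vehicle and 10.6 ± 3.13 CPM under PGE2 (SD, n = 3). The log2 fold change was -0.81 ± 0.342 (edgeR adjusted p = 0.255), or -0.77 ± 0.103 with the block (adjusted p = 0.00126). Pola1 was the member that passed in each block fit with a number left out, at -0.86 to -0.66.

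Pole encodes the catalytic subunit of polymerase epsilon, which copies the leading strand. It was at 21.6, 9.56 and 8.48 CPM under vehicle and 12.1, 7.04 and 6.09 CPM under PGE2, in library order 1 to 3. Its log2 fold change was -0.66 ± 0.432 (edgeR adjusted p = 0.441), or -0.60 ± 0.115 with the block (adjusted p = 0.00852). Only the PGE2 1 level lay inside the vehicle range, and without the number 1 libraries Pole did not pass (-0.46, adjusted p = 0.0679). Prim1, the catalytic primase subunit that lays down RNA primers, was at 19.9, 12.2 and 12.6 CPM under vehicle and 14.7, 10.9 and 8.76 CPM under PGE2. Its block fold change was -0.38 ± 0.105 (edgeR adjusted p = 0.0387), or -0.34 with an adjusted p of 0.167 without number 1. The accessory subunits had smaller differences: the fold changes of Pola2, Prim2 and Pole2 were -0.19, -0.06 and -0.09 on the log2 scale, and none passed in either fit.

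**Figure D4:**
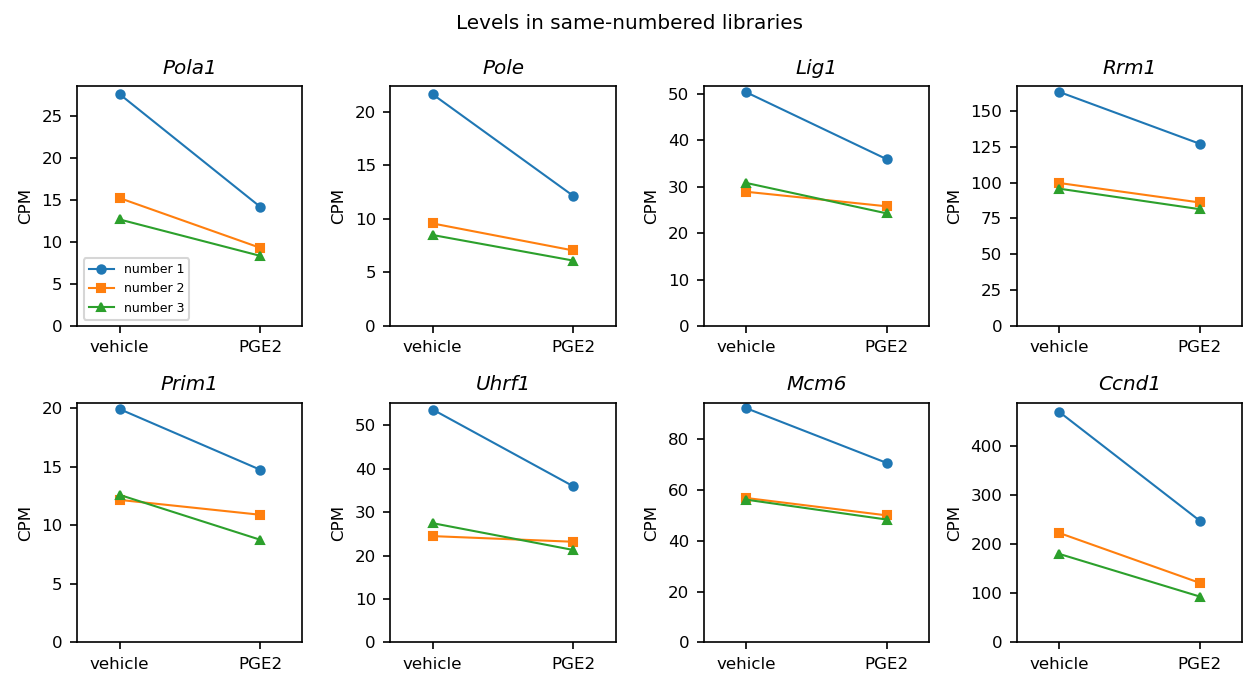
CPM of the 7 members called in the block fit and of cyclin D1 (Ccnd1), with a line joining the vehicle and PGE2 libraries of the same number. Every line slopes down, and the number 1 line lies highest in all 8 panels.

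Origin licensing genes had a median log2 fold change of -0.22 over 10 members, with 8 below 0. With the block 1 passed, where 14.4% of all genes did. Mcm6, a subunit of the helicase ring, was at 92.3, 56.9 and 56.2 CPM under vehicle (libraries 1 to 3) and at 70.7, 50.02 and 48.4 CPM under PGE2 (same order). All 3 PGE2 libraries were below their vehicle partner, and PGE2 1 was above vehicle 2 and 3. Its block fold change was -0.26 ± 0.0758 (edgeR adjusted p = 0.0425), and it did not pass without number 1 (-0.20, adjusted p = 0.326) or without number 2 (-0.30, adjusted p = 0.119).

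The other 5 ring subunits were also highest in the number 1 libraries and did not pass in either fit. Mcm2 was at 53.4, 25.4 and 29.3 CPM under vehicle and 41.5, 29.97 and 29.6 CPM under PGE2, and Mcm3 at 53.4, 24.8 and 27.1 CPM and 40.9, 25.3 and 24.4 CPM. Mcm4 was at 71.8, 41.1 and 46.8 CPM under vehicle and 53.2, 37.6 and 43.4 CPM under PGE2. For these and the next 2 subunits number 1 had the widest difference between treatments. Mcm5 was at 59.4, 23.4 and 27.9 CPM under vehicle and 41.2, 23.8 and 21.9 CPM under PGE2. Mcm7 was at 79.4, 49.9 and 51.4 CPM under vehicle and 63.03, 45.2 and 44.5 CPM under PGE2. Per kilobase of the longest annotated transcript, the 6 ring subunits had mean levels between 9.51 (Mcm3) and 18.8 CPM (Mcm7). Their block fold changes were between -0.30 (Mcm5) and -0.05 (Mcm2) on the log2 scale.

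None of the genes that load the ring passed in either fit. Cdc6, which brings the helicase to the origin, was at 10.7, 4.50 and 6.15 CPM under vehicle and 11.1, 6.49 and 7.10 CPM under PGE2, higher under PGE2 in all 3 numbers. Its log2 fold change was 0.20 ± 0.349 (edgeR adjusted p = 0.784), or 0.24 ± 0.126 with the block (adjusted p = 0.215). Its partner Cdt1 was at -0.23 and the origin recognition subunits Orc1 and Orc6 at -0.06 and 0.03. Orc1, at 37 to 144 counts per library, had a 95% interval of -0.72 to 0.59.

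Helicase activation genes had 0 of 5 members past the threshold in either fit, and 4 of 5 were above 0. Of all genes 0.342% passed with treatment alone and 14.4% with the block. Cdc45, which joins MCM in the active helicase, had a log2 fold change of 0.18 ± 0.338, and the GINS subunits Gins1, Gins2 and Gins3 were at 0.18, 0.05 and 0.09. The median difference of these 5 genes was 0.03, 0.27 and -0.02 in numbers 1 to 3. Mcm10, which helps start the helicase, was at -0.37 ± 0.429.

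In the clamp and lagging strand group 1 of 7 members passed with the block, where 14.4% of all genes did. Lig1, the ligase that joins Okazaki fragments, was at 50.4, 28.9 and 30.8 CPM under vehicle (libraries 1 to 3) and 35.9, 25.8 and 24.3 CPM under PGE2 (same order). PGE2 was lower in all 3 numbers. The block fold change was -0.34 ± 0.0857 (edgeR adjusted p = 0.0273), and -0.26 with an adjusted p of 0.231 without number 1. The sliding clamp Pcna, the most abundant member per kilobase at 53.6 CPM, was at 98.1, 61.6 and 72.98 CPM under vehicle and 100.4, 81.0 and 73.97 CPM under PGE2. It was higher under PGE2 in all 3 numbers but mostly in number 2, at 0.13 ± 0.189 (edgeR adjusted p = 0.732), with a 95% interval of -0.32 to 0.58. The clamp loader subunits Rfc2 to Rfc5 were between -0.22 (Rfc4) and 0.09 (Rfc3), and the flap nuclease Fen1 was at -0.01. The single-stranded DNA-binding subunits Rpa1 and Rpa2 were at -0.15 and 0.15, and none of these passed in either fit.

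Of the 3 nucleotide supply genes 1 passed with the block, where 14.4% of all genes did. Rrm1, the large subunit of ribonucleotide reductase, was at 163, 99.7 and 95.7 CPM under vehicle (libraries 1 to 3) and 127, 86.1 and 81.4 CPM under PGE2 (same order), lower in all 3 numbers. Its block fold change was -0.27 ± 0.0698 (edgeR adjusted p = 0.0296), and it passed without number 3 but not without number 1 (-0.22, adjusted p = 0.238) or number 2 (-0.30, adjusted p = 0.106). With vehicle 1 left out and no block, Rrm1 was at 0.002 and Uhrf1 at 0.04, a change of sign, and Pola1, Pole and Mcm6 were at -0.40, -0.10 and -0.01. The small subunit Rrm2, the member with the greatest share of its spread between numbers (98.75%), was at 103, 41.6 and 41.6 CPM under vehicle and 89.8, 43.6 and 39.2 CPM under PGE2, with number 2 higher and numbers 1 and 3 lower under PGE2. Its block fold change was -0.07 ± 0.0786 (edgeR adjusted p = 0.554), a 95% interval of -0.25 to 0.10. Thymidylate synthase Tyms was at 0.24 ± 0.169, higher under PGE2 in all 3 numbers and not past the threshold in either fit.

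The G1/S regulators had 0 of 4 members past the threshold in either fit (all genes: 0.342% with treatment alone, 14.4% with the block). Cyclin E1 (Ccne1), which activates CDK2, was at 16.8, 11.3 and 13.4 CPM under vehicle and 17.4, 16.2 and 17.3 CPM under PGE2, higher in all 3 numbers. Its log2 fold change was 0.29 ± 0.145 (edgeR adjusted p = 0.313), or 0.30 ± 0.108 with the block (adjusted p = 0.0863), and 0.44 with an adjusted p of 0.0387 without the number 1 libraries. Cyclin E2 (Ccne2) was at 13.4, 4.59 and 6.68 CPM under vehicle and 11.3, 6.28 and 7.40 CPM under PGE2, with number 1 lower and the others higher. E2f1 was at 43.02, 38.5 and 38.5 CPM under vehicle and 43.8, 39.1 and 39.4 CPM under PGE2. The E2f1 difference was 0.03 ± 0.0809, with a 95% interval of -0.16 to 0.21 and the smallest standard error among the members. E2f2, at 11 to 55 counts per library, had an interval of -0.88 to 1.01 with treatment alone and of -0.55 to 0.84 with the block.

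Uhrf1, which keeps DNA methylation on newly copied strands, was at 53.6, 24.5 and 27.5 CPM under vehicle (libraries 1 to 3) and 35.9, 23.2 and 21.3 CPM under PGE2 (same order). PGE2 was lower in all 3 numbers. Its block fold change was -0.35 ± 0.0990 (edgeR adjusted p = 0.0403), and -0.23 with an adjusted p of 0.325 without number 1. Slbp, which binds the stem-loop of histone mRNAs, was at 0.08 ± 0.0914 with treatment alone.

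The rest of the pathway was read from a list of 63 other replication and G1/S genes, all of them tested. With treatment alone 0 of 63 passed in edgeR (0.342% of all genes) and 9 had an unadjusted p under 0.05 (20.1% of all genes). DESeq2 called 2, Pole4 and Cdk6, where it called 6.04% of the genes to which it gave an adjusted p. With the block 6 of 63 passed, 2 higher and 4 lower, where 14.4% of all genes did. The median log2 fold change was -0.06. Cyclin D1 (Ccnd1), which activates CDK4 and CDK6 in G1, was at 469, 223 and 180 CPM under vehicle (libraries 1 to 3) and 247, 121 and 93.2 CPM under PGE2 (same order). Each PGE2 library was below its vehicle partner, and the groups overlapped, with number 1 high in both. The block fold change of Ccnd1 was -0.92 ± 0.0701 (edgeR adjusted p = 5.9e-05), and it passed whichever number was left out, at -0.94 to -0.91.

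Cyclin D2 (Ccnd2) was at 336, 256 and 227 CPM under vehicle and 235, 190 and 195 CPM under PGE2 (-0.39 ± 0.0802 with the block, edgeR adjusted p = 0.0117). Its kinase partner Cdk6 had PGE2 levels of 1.36 to 1.76 CPM, all below the vehicle levels of 2.36 to 3.35 CPM (-0.79 ± 0.181, adjusted p = 0.0184). Cdk6 had 50 to 144 counts per library. With a correction for transcript length added to the block fit, Cdk6 did not pass (-0.52, edgeR adjusted p = 0.0719). Cyclin A2 (Ccna2), which acts in S phase and G2, fell by 0.30 on the log2 scale with the block (edgeR adjusted p = 0.0375). With vehicle 1 left out and no block it was at 0.11, a change of sign. Dut, which keeps uracil out of DNA, rose by 0.35 ± 0.0794, and the small polymerase epsilon subunit Pole4 by 0.31 ± 0.0751. Without the number 1 libraries Ccnd1 alone of the 63 genes was called in the block fit, where 1372 of 15057 genes were.

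Longer transcripts tended to have lower fold changes, among the members and among all genes, with the weakest relation in number 3. Fold change and length of the longest annotated transcript had a Spearman correlation of -0.438 across the 39 members and -0.408 across 15098 tested genes. These are correlations across genes that share the same 6 libraries. Within numbers 1 to 3 it was -0.483, -0.411 and -0.251 for members and -0.478, -0.435 and -0.0314 for all genes. After a correction for length in the block fit, 10 members passed, 1 higher and 9 lower (25.6%, against 16.8% of all genes, 8.82% higher and 7.97% lower). Pola1 was then at -0.67, Pole at -0.43, Prim1 at -0.40, Lig1 and Uhrf1 at -0.35 and Mcm6 at -0.21. Mcm4, Mcm7 and Rfc4 also fell, Tyms rose by 0.27 (edgeR adjusted p = 0.0257), and Rrm1 did not pass at -0.16 (adjusted p = 0.0692). With the correction and no block, 0 members passed in edgeR, against 0.0593% of all genes higher and 0.0395% lower, and 0 members had an unadjusted p under 0.05.

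Markers of other cell types also differed between treatments in the block fit. With the block 6 of the 8 tested myogenic markers fell, as did 3 of 6 pericyte, 2 of 3 Schwann cell and 1 of 4 endothelial markers, against 7.51% of all genes. Of 4 tested leukocyte markers 2 rose, against 6.91% of all genes, and of 9 progenitor markers 2 rose (Ly6a and Pi16) and 2 fell (Cd34 and Lum). With treatment alone 0 markers of these lists passed in edgeR, where 0.342% of all genes did. After the length correction in the block fit 3 myogenic, 1 pericyte, 2 Schwann cell and 1 endothelial marker fell, against 7.97% of all genes. The pericyte markers not called, Mcam, Kcnj8 and Abcc9, were at 0.17, 0.58 and 0.04 with treatment alone. The median difference of the myogenic markers was -0.59, -1.86 and -1.34 in numbers 1 to 3, where the replication members had -0.22, 0.11 and -0.10. The part of any of these cells in the 7 calls was not tested. Of the 39 members 19, with Pola1, Pole, Lig1 and Rrm1 among them, share their span with another annotated gene, and the strand setting of the counting is not given in the sources used here.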

How the data were processed

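Polyadenylated RNA was sequenced from 6 libraries. The authors deposited whole-number counts per gene, 1 column per library, with Ensembl identifiers. Per the submitters' processing notes the build was mm10. Aligner, counter and strand setting: not given in the sources used here. All 37 mitochondrial genes were at 0 in every library. No library repeated another of its group, since chi-square per degree of freedom was at least 20 for every pair.

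Counts were tested with edgeR version 4.0.16 (R version 4.3.3): genes kept by filterByExpr, TMM scaling, the quasi-likelihood test with robust dispersions over all 15186 genes, and Benjamini-Hochberg adjusted p under 0.05. Fold changes compare PGE2 with vehicle, errors of fold changes are standard errors, and intervals are 95%. Within-number differences are of log2 CPM with a prior count of 2. The fit with replicate number as a block is the paired fit. Deviations from group means of same-numbered libraries correlated at 0.621, 0.169 and 0.422. Each exceeded 0.1, so the numbers were taken to pair the samples, on evidence from the data. Exchanging numbers 2 and 3 would meet that rule too, at 0.145 and 0.252.

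Alternatives were DESeq2 version 1.42.0, other scalings, no filter, libraries left out, and a lowess correction for transcript length (span 0.3, lengths for 99.4% of tested genes) from GENCODE on GRCm38. The fits were tested on simulated data. Per-library values were given for members past the threshold in either fit and for Mcm2 to Mcm7, Pcna, Ccne1, Ccne2, E2f1, Rrm2 and Cdc6. Of the other genes of the pathway, those past the threshold in either fit were named. The members and lists were chosen with earlier results of these data known.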

Additional observations from a re-analysis of the deposited data

How the results depend on the processing

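With treatment alone, the count of 0 members held under DESeq2, both other scalings, no filter on low counts, the length correction and each library left out, with 0 to 2 members at an unadjusted p under 0.05. With the replicate block it was 7, with the block and length correction 10, and with the block 2, 6 and 13 without numbers 1, 2 and 3. For the 63 other replication genes the count of 0 became 6 with the block, 9 with the block and length correction, 2 with DESeq2, and with the block 1, 4 and 22 without numbers 1, 2 and 3. Over all genes the count of 52 became 2189 with the block, 15 with the length correction, 2549 with both, 829 with DESeq2 and 285 without the filter. It was 0 to 120 with 1 library left out and with the block 1372, 1160 and 5097 without numbers 1, 2 and 3. Scaling by library totals gave 31 higher and 34 lower, against 32 and 20. The members' median log2 fold change of -0.09 was between -0.28 and 0.184 with 1 library left out. The 30 members that differed between numbers became 0 to 35 with 1 number left out. The cause of these differences was not tested. Pola1, Pole, Prim1, Lig1 and Mcm6 were below 0 in every fit run. E2f2 and Orc1, the members with the fewest counts, had the largest standard errors with the block, 0.314 and 0.178, but not with treatment alone.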

Other observations

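Genes that act after S phase and genes that hold cells in G1 were measured beside the replication genes. Of 18 genes of G2 and mitosis, 7 fell with the replicate block and 0 rose (edgeR, adjusted p under 0.05), where 7.51% of all tested genes were lower. They were Mki67, Top2a, Cenpe, Cenpf, Kif11, Kif20a and Tpx2, named after their values were seen. With treatment alone 0 of the 18 passed, where 0.342% of all genes did. The groups did not overlap for 0 of the 18, against 25.9% of all genes. That 0 follows from both number 1 libraries lying above the other 4 in all 18, and is no separate result on treatment. Cenpf, Mki67 and Cenpe had the longest transcripts of the 18. After the length correction in the block fit 8 fell, where 7.97% of all genes were lower. Mki67 was then at -0.45, and Tpx2 did not pass (edgeR adjusted p = 0.0501). The proliferation antigen gene Mki67 was at 112, 54.8 and 43.7 CPM under vehicle and 63.6, 36.8 and 27.9 CPM under PGE2 in numbers 1 to 3, with a block log2 fold change of -0.68 ± 0.0788. Of 7 CDK inhibitor genes 2 fell with the block (7.51% of all genes were lower) and 0 rose, also named after their values were seen. They were Cdkn1c (-0.56 ± 0.0888) and Cdkn2b (-0.38 ± 0.0871). With treatment alone 0 of the 7 passed, these 2 having edgeR adjusted p-values of 0.317 and 0.137. Cdkn1a, the p53 target that stops the cell cycle, was at 349 ± 16.6 CPM under vehicle and 333 ± 33.9 CPM under PGE2 (SD, n = 3), within the spread between libraries.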
